A study of Mus musculus with 12 samples.

Results

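Lipid-associated macrophages are macrophages that gather around dying or enlarged adipocytes in obese fat. The genes described here are 9 genes known to be raised in them, Trem2, Tyrobp, Gpnmb, Spp1, Cd9, Fabp5, Cd63, Lgals3 and Plaur. They were chosen by symbol with earlier results of these data known, so their shares called are not independent of the choice. Each matched exactly 1 row of the 55281 rows of a gene count table made from gonadal white adipose tissue (GWAT). All 9 of the 9 passed the filter on low counts, as did 18427 genes in all.

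Trem2 is a lipid-binding receptor on the surface of macrophages and microglia, and it signals through the adaptor Tyrobp (DAP12), whose phosphorylated tail recruits the kinase Syk. In adipose tissue this receptor is needed for macrophages to form crowns around adipocytes and to take up and break down released lipid. Several of the other genes encode proteins of late endosomes, lysosomes or the cell surface, and others encode a lipid carrier or secreted proteins.

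The samples were whole GWAT of male mice aged 22 to 24 weeks, studied by poly(A) RNA sequencing after 16 weeks on control diet (CD, 14% fat) or high-fat diet (HFD, 60% fat), begun at 6 weeks of age. HoipA-KO mice carried Hoip fl/fl (Hoip, gene symbol Rnf31, encodes the catalytic subunit of the linear ubiquitin chain assembly complex) and AdipoQ.Cre, which is active in adipocytes. WT mice were Hoip fl/fl littermates without Cre. WT CD, WT HFD, HoipA-KO CD and HoipA-KO HFD had 3 libraries each, and every library pooled the RNA of 3 mice, so that the spread between replicates is the spread between pools.

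Levels are given in CPM (counts scaled to a common library size). Library totals ran from 30513446 to 60540225 estimated counts. WT CD replicate 3 stood apart, with 7403 genes over 8 times their level in every other library, and 7 testis genes summed to 8994 CPM there against at most 425 elsewhere. The study's comparisons leave this library out, and so did the fit used here (11 libraries), while levels are given for all 12. WT CD replicate 2, 1 of the 2 WT CD libraries in the fit, also stood apart, with 874 genes over 8 times their level elsewhere that held 6.84% of its counts. Genes of the epididymis, 8 in the list, summed to 12358 CPM in WT CD replicate 2, 1283 in HoipA-KO HFD replicate 1, 250.2 in WT CD replicate 3 and at most 71.8 elsewhere. Rnf31 itself ran from 12.6 to 20.7 CPM in WT and from 17.9 to 22.5 in HoipA-KO, so its whole-tissue level did not separate the genotypes. The labelled tissue showed its markers in each library. A list of 10 adipocyte genes summed to 8869.9 to 28024 CPM in WT CD and 12335.5 to 17657 in WT HFD. In HoipA-KO these genes summed to 3199 to 4481 CPM on CD and 2457 to 4267 on HFD.

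On CD all 9 genes were higher in HoipA-KO than in WT (edgeR's quasi-likelihood test, adjusted p under 0.05), where 18.9% of all genes tested were called higher. The median log2 fold change of the 9 was 4.88, beside -0.06 over all genes. For each of the 9, the 3 HoipA-KO libraries lay above all 3 WT libraries, as did 20.8% of all genes. The diet comparison in WT called 6 of the 9 higher on HFD, against 9.35% of all genes, and the 9 did not overlap between the diets, against 17.4% of all genes. Genotype on HFD called 6 of the 9 higher in HoipA-KO, against 4.2% of all genes, and 8 of the 9 did not overlap, against 20.8% of all genes. Within HoipA-KO, diet called 0 of the 9 and 0% of all genes. In whole tissue, more macrophages and more RNA of these genes per macrophage cannot be told apart. Because WT CD is the reference of the genotype comparison on CD and of the diet comparison in WT, these 2 comparisons share its libraries.

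**Figure D1:**
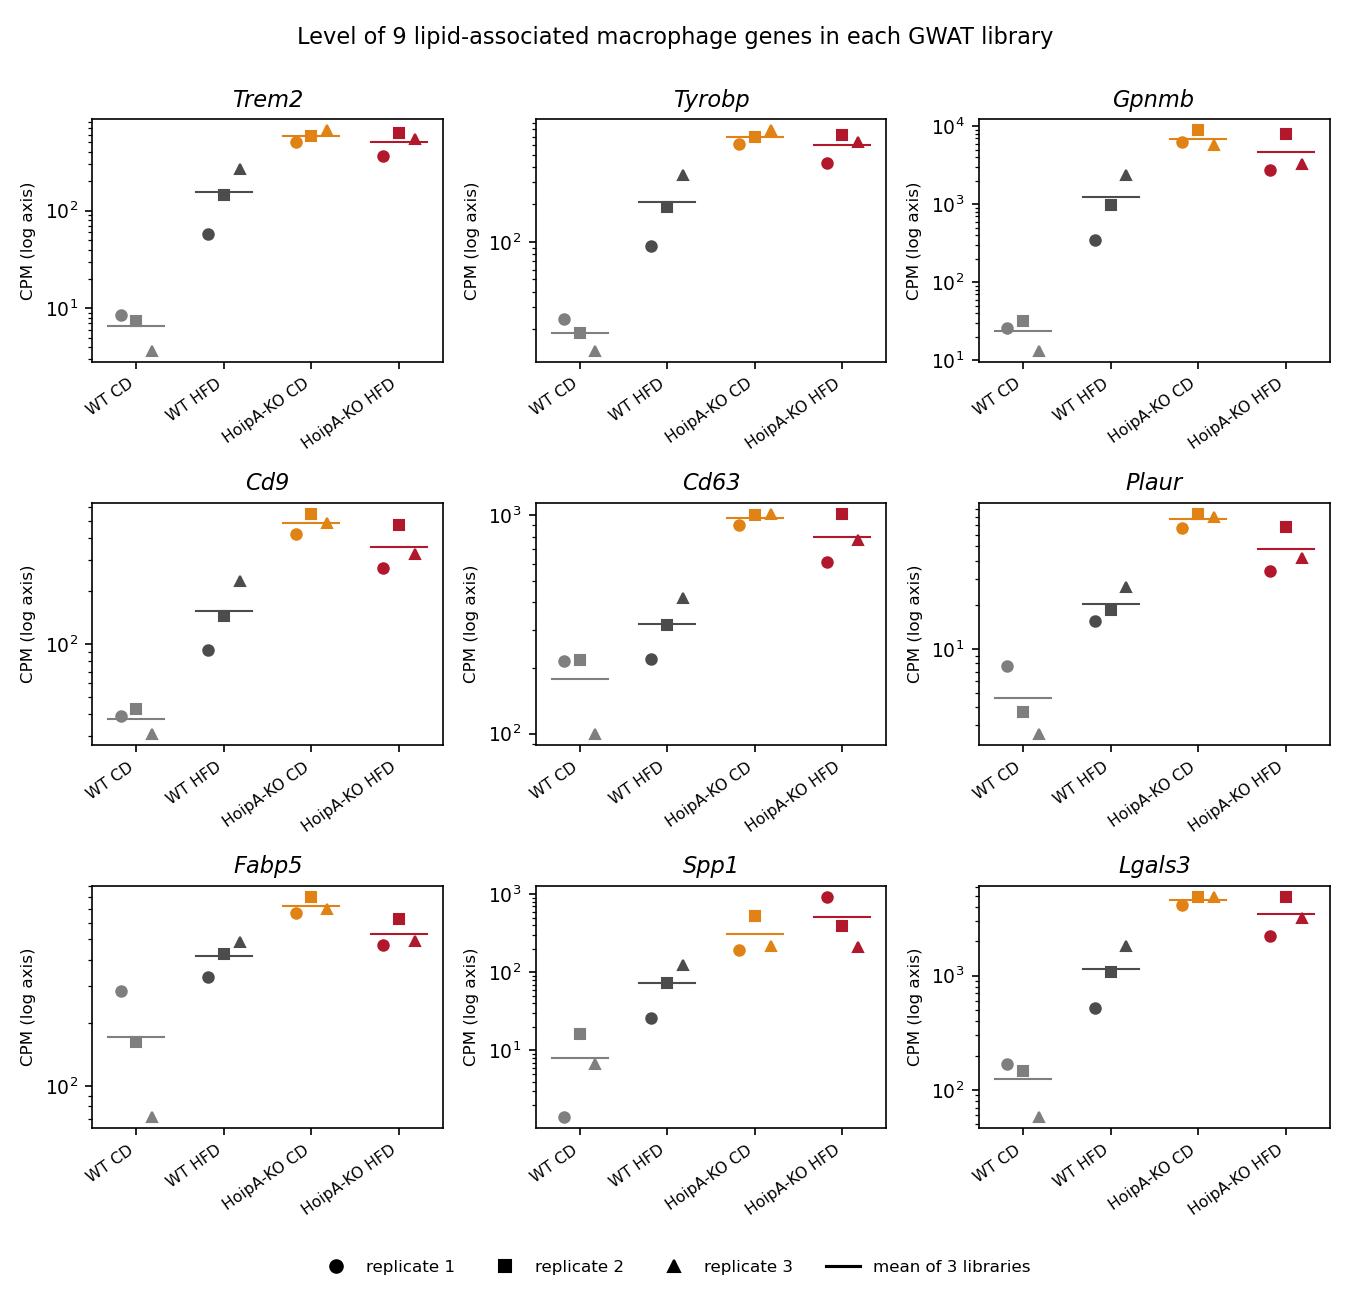
Level of each gene, in CPM on a log axis, in the 12 GWAT libraries by genotype and diet, with 1 symbol per replicate and a line at the mean of 3 libraries. The WT CD libraries lie lowest for all 9 genes, WT HFD replicate 1 is the lowest and replicate 3 the highest of WT HFD in each panel, and Spp1 is highest in HoipA-KO HFD replicate 1.

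The receptor and its adaptor come first. Trem2 (chr17:48346401-48354147, plus strand in GRCm38) encodes the lipid-sensing receptor. Trem2 measured 8.47, 7.49 and 3.70 CPM in WT CD, 57.9, 145 and 268 in WT HFD, 507, 582 and 665 in HoipA-KO CD, followed by 363, 617 and 544 in HoipA-KO HFD (replicates 1, 2 and 3 of each). No 2 of the WT CD, WT HFD and HoipA-KO groups overlapped, whereas the ranges of HoipA-KO CD and HoipA-KO HFD did. The log2 fold change of Trem2 in HoipA-KO was 6.20 (standard error 0.669, adjusted p = 0.000452) on CD and 1.69 (standard error 0.454, adjusted p = 0.0424) on HFD. In WT, HFD raised Trem2 by 4.30 (adjusted p = 0.00617) on the log2 scale, and in HoipA-KO the diet difference was -0.20 (adjusted p = 1).

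Tyrobp (chr7:30413760-30417585, plus strand) encodes the signalling adaptor. Tyrobp measured 24.0, 18.6 and 13.5 CPM in WT CD, 92.0, 191 and 347 in WT HFD, 613, 692 and 786 in HoipA-KO CD, followed by 428, 723 and 635 in HoipA-KO HFD (replicates 1, 2 and 3 of each). Its libraries fell in the same order as those of Trem2 within each group. Tyrobp rose by 5.04 (standard error 0.575, adjusted p = 0.000493) in HoipA-KO on CD and by 1.503 (standard error 0.413, adjusted p = 0.0452) on HFD, and by 3.31 (adjusted p = 0.00667) on HFD in WT. The counts of the receptor and its adaptor did not change in proportion. Within a library the ratio of Trem2 to Tyrobp counts was 0.353, 0.403 and 0.274 in WT CD, 0.629, 0.760 and 0.772 in WT HFD, 0.827, 0.841 and 0.846 in HoipA-KO CD, followed by 0.847, 0.853 and 0.858 in HoipA-KO HFD. This ratio, which does not depend on scaling between libraries, was higher in every WT HFD library than in every WT CD library and higher again in every HoipA-KO library, and all 6 HoipA-KO ratios lay within 0.827 to 0.858.

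Among the membrane proteins, Gpnmb (chr6:49036546-49070929, plus strand) encodes a glycoprotein of lysosomes and the cell surface. Gpnmb measured 25.7, 31.9 and 13.3 CPM in WT CD, 349, 987 and 2389.9 in WT HFD, 6296, 8881 and 5673 in HoipA-KO CD, followed by 2747, 8011 and 3268 in HoipA-KO HFD (replicates 1, 2 and 3 of each). All HoipA-KO libraries lay above all WT HFD libraries, and WT HFD spanned a 6.85-fold range. Gpnmb had the largest log2 fold change of the 9 on CD, 7.92 (standard error 1.02, adjusted p = 0.000631), which placed it at rank 19 of 18427 genes. On HFD its genotype difference of 1.91 (standard error 0.643, adjusted p = 0.0797) was not called, while the diet difference in WT was, at 5.43 (adjusted p = 0.00725). Gpnmb alone took 0.639, 0.798 and 0.581% of all counts in HoipA-KO CD replicates 1 to 3, against 0.00228, 0.00328 and 0.00141% in WT CD.

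Cd9 (chr6:125460266-125494791, minus strand) and Cd63 (chr10:128900989-128912822, plus strand) encode tetraspanins, scaffold proteins of the plasma membrane and of late endosomes. Cd9 measured 39.2, 42.9 and 31.0 CPM in WT CD, 92.4, 145 and 228 in WT HFD, 425, 553 and 489 in HoipA-KO CD, followed by 271, 474 and 328 in HoipA-KO HFD (replicates 1, 2 and 3 of each). Groups did not overlap except HoipA-KO CD with HoipA-KO HFD. Cd9 was raised by 3.58 (standard error 0.412, adjusted p = 0.000498) in HoipA-KO on CD, by 1.20 (standard error 0.318, adjusted p = 0.0408) on HFD and by 1.92 (adjusted p = 0.0121) on HFD in WT. Cd63 measured 215, 217 and 99.8 CPM in WT CD, 219, 314 and 419.9 in WT HFD, 906, 1001 and 1016 in HoipA-KO CD, followed by 609.5, 1021 and 769.9 in HoipA-KO HFD (replicates 1, 2 and 3 of each). For Cd63, WT CD replicates 1 and 2 lay just under WT HFD replicate 1, and the HoipA-KO libraries lay clear of both WT groups. Cd63 rose by 2.18 (standard error 0.312, adjusted p = 0.000947) in HoipA-KO on CD and by 1.33 (standard error 0.260, adjusted p = 0.0170) on HFD, and the diet difference in WT, 0.56 (adjusted p = 0.215), was not called. The ratio of Cd9 to Cd63 counts was 0.183, 0.198 and 0.311 in WT CD and between 0.422 and 0.552 in the other 9 libraries.

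Plaur (chr7:24462484-24475968, plus strand) encodes the urokinase receptor, which holds the protease urokinase at the cell surface. Plaur measured 7.64, 3.68 and 2.63 CPM in WT CD, 15.6, 18.3 and 26.4 in WT HFD, 66.4, 83.9 and 80.0 in HoipA-KO CD, followed by 34.0, 68.2 and 41.4 in HoipA-KO HFD (replicates 1, 2 and 3 of each). All 6 HoipA-KO libraries lay above all 6 WT libraries, and the HoipA-KO groups overlapped each other. Plaur rose by 3.77 (standard error 0.435, adjusted p = 0.000506) in HoipA-KO on CD, by 1.25 (standard error 0.332, adjusted p = 0.0412) on HFD and by 1.83 (adjusted p = 0.0171) on HFD in WT. Within HoipA-KO its diet difference was -0.68 (standard error 0.328, adjusted p = 1), the lowest of the 9 and not called.

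Fabp5 (chr3:10012548-10016607, plus strand) encodes an intracellular fatty acid carrier found in macrophages and in adipocytes. Fabp5 measured 284, 161 and 71.2 CPM in WT CD, 332, 426 and 488 in WT HFD, 672, 799.5 and 696 in HoipA-KO CD, followed by 472, 629 and 489 in HoipA-KO HFD (replicates 1, 2 and 3 of each). WT HFD and HoipA-KO HFD overlapped, the one pair of genotype groups that did so among the 9 genes. Fabp5 rose by 1.70 (standard error 0.285, adjusted p = 0.00191) in HoipA-KO on CD, the smallest change of the 9, and its difference on HFD was 0.35 (standard error 0.240, adjusted p = 0.339). The diet difference in WT, 0.90 (adjusted p = 0.0550), was not called. All 3 HoipA-KO HFD libraries lay below all 3 HoipA-KO CD libraries, as did 2.47% of all genes, and this difference of -0.45 (standard error 0.240, adjusted p = 1) was not called. Fabp4, the main carrier of adipocytes, was lower in HoipA-KO, going from 12229.7 CPM on average in WT CD and 12596 in WT HFD to 4396 and 4137 in HoipA-KO on CD and on HFD. The ratio of Fabp5 to Fabp4 counts was 0.0131, 0.0171 and 0.0127 in WT CD, 0.0260, 0.0297 and 0.0458 in WT HFD, 0.142, 0.234 and 0.138 in HoipA-KO CD, followed by 0.111, 0.186 and 0.102 in HoipA-KO HFD. All 6 HoipA-KO ratios were above all 6 WT ratios.

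The secreted proteins were Spp1 (osteopontin, chr5:104435118-104441050, plus strand), a phosphoprotein that binds integrins and Cd44, and Lgals3 (galectin-3 or Mac2, chr14:47367751-47386160, plus strand), a lectin that binds galactosides and marks macrophages around adipocytes. Spp1 measured 1.41, 16.2 and 6.70 CPM in WT CD, 26.0, 73.2 and 123 in WT HFD, 194, 529 and 221 in HoipA-KO CD, followed by 933, 391 and 213 in HoipA-KO HFD (replicates 1, 2 and 3 of each). Spp1 had the widest range of the 9 in WT CD and in both HoipA-KO groups, spanning 11.5-fold in WT CD, and HoipA-KO HFD replicate 1 held its highest level while the other 8 genes were lowest of their group there. The epididymis genes were highest of their group in the same library of WT CD (replicate 2) and of HoipA-KO HFD (replicate 1) as Spp1. In WT CD replicates 1, 2 and 3 they summed to 1.48, 12358 and 250.2 CPM and in HoipA-KO HFD to 1283, 0.315 and 71.8. In WT HFD (5.13, 1.91 and 0.476 CPM) and HoipA-KO CD (0.498, 0.368 and 68.4) they were lowest in the library where Spp1 was highest, and their part in the level of Spp1 was not tested. Spp1 rose by 5.16 (standard error 1.24, adjusted p = 0.0103) in HoipA-KO on CD. On HFD the genotype difference was 2.79 (standard error 0.923, adjusted p = 0.0760), and the diet difference in WT was 3.08 (standard error 1.11, adjusted p = 0.0882), neither of which was called although neither pair of groups overlapped. The size of these differences moved with single libraries. On CD the value was 7.81 without WT CD replicate 2, 4.26 without WT CD replicate 1 and 4.56 without HoipA-KO CD replicate 2, and it was called in each. For diet in WT it was 5.72 (adjusted p = 0.0492) without WT CD replicate 2, 2.22 without WT CD replicate 1 and 2.35 without WT HFD replicate 3. For genotype on HFD it was 2.02 without HoipA-KO HFD replicate 1 and 3.38 without WT HFD replicate 3. Without WT CD replicate 1 or without WT CD replicate 2 the genotype difference on HFD was called, at 2.78 (adjusted p = 0.0319) and 2.79 (adjusted p = 0.0282).

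Lgals3 reached 167, 147 and 58.1 CPM in WT CD, 519, 1072 and 1805 in WT HFD, 4144, 4820.3 and 4878 in HoipA-KO CD, followed by 2232, 4889 and 3204 in HoipA-KO HFD (replicates 1, 2 and 3 of each). The groups kept the order WT CD, WT HFD and then both HoipA-KO groups, with no overlap between WT and HoipA-KO. Lgals3 rose by 4.88 (standard error 0.590, adjusted p = 0.000536) in HoipA-KO on CD, by 1.60 (standard error 0.429, adjusted p = 0.0420) on HFD and by 2.85 (adjusted p = 0.00979) on HFD in WT. Together the 9 genes made up 0.0685, 0.0665 and 0.0317% of all counts in WT CD, 0.170, 0.326 and 0.613% in WT HFD, 1.40, 1.61 and 1.48% in HoipA-KO CD, followed by 0.917, 1.57 and 1.03% in HoipA-KO HFD.

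**Figure D2:**
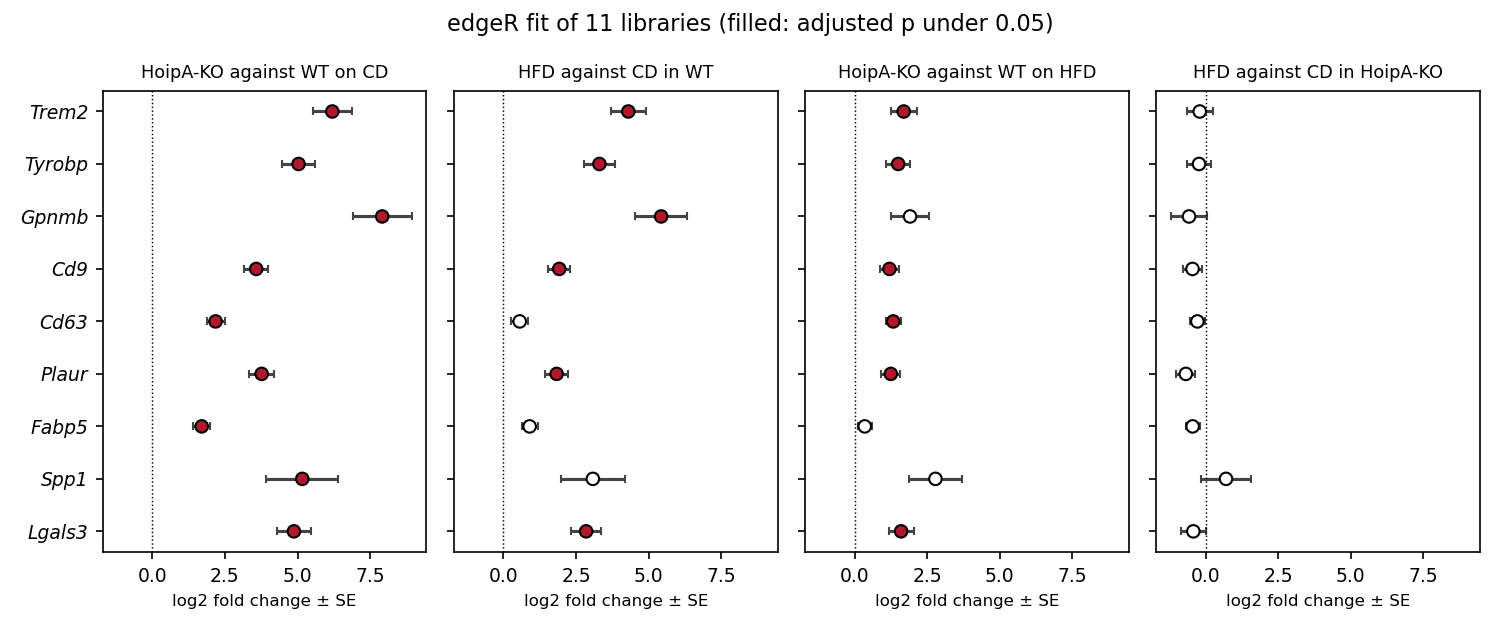
Log2 fold change of each gene with its standard error in the 11-library edgeR fit, in 4 comparisons, with filled points where the adjusted p was under 0.05. All 9 points are filled for genotype on CD, 6 for diet in WT, 6 for genotype on HFD and 0 for diet in HoipA-KO.

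Levels of different genes can be compared only per length of transcript, for which CPM was divided here by the merged exon length in kilobases. That length joins the exons of all annotated transcripts of a gene, and which transcripts were present was not measured. It was 4946 bases for Trem2, 3567 for Fabp5 and 667 for Tyrobp. The order of the 9 genes and their ranks therefore hold for these lengths only and may differ with the length of the transcript present. Per kilobase Lgals3 was the most abundant of the 9 in HoipA-KO CD at 2483 ± 219.7 CPM (SD, n = 3), between rank 8 and 14 of the 51948 genes with a length. Gpnmb at 1067 ± 261 and Tyrobp at 1045 ± 129.8 CPM per kilobase followed in that group, and they did not differ beyond their spread. On these merged lengths Trem2 at 118 ± 16.0 and Plaur at 29.3 ± 3.51 were the lowest pair there. In WT CD the per-kilobase levels were 66.9 ± 31.3 for Lgals3, 28.0 ± 7.91 for Tyrobp and 3.63 ± 1.45 for Gpnmb. The rank of Gpnmb moved from between 6707 and 12541 in WT CD to between 25 and 48 in HoipA-KO CD.

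Because the 9 genes moved together on CD, the 250 bases before the start site were read for those with an entry in RefSeq's promoters (GRCm38.p6), which were 7 of the 9, all but Tyrobp and Fabp5. Each window was searched on both strands for 4 motifs of factors active in macrophages, which are TGANTCA (AP-1), AGGAAGT (PU.1), CACGTG (E-box) and TCATGTG (M-box of Mitf and Tfe factors). Of 32851 promoter windows of that length, 6.75% held the AP-1 motif, 7.69% the PU.1 motif, 6.02% the E-box and 3.25% the M-box, and the motifs overlapped in none of the windows shown. Trem2 (chr17:48346151-48346400, plus strand) and Plaur (chr7:24462233-24462482, plus strand) each held 1 AP-1 motif, and the first of the 2 Spp1 windows (chr5:104434861-104435110, plus strand) held 1 PU.1 motif. Gpnmb (chr6:49036268-49036517, plus strand) is shown as the gene with the largest fold change, and like Cd9, Cd63 and Lgals3 it held none of these motifs in its window. The windows are written 5′ to 3′ with the matched motif in capitals.
Trem2: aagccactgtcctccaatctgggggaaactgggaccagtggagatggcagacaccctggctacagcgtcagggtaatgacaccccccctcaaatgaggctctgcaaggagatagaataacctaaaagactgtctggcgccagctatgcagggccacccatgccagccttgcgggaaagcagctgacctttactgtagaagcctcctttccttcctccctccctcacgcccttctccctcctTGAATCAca
Plaur: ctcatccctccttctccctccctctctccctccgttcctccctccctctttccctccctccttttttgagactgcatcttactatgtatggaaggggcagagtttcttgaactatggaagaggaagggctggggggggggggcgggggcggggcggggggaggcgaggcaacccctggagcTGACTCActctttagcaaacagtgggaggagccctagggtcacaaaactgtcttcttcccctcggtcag
Spp1: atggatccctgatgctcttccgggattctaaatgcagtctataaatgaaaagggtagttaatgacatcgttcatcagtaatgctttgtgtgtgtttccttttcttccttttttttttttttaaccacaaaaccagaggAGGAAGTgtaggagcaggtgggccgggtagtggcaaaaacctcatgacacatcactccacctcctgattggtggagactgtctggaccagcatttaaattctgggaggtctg
Gpnmb: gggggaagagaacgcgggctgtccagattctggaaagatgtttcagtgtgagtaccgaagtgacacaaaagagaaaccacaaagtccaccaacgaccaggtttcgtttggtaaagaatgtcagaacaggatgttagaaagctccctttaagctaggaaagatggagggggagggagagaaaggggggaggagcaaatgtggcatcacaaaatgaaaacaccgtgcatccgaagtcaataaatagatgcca
The AP-1 match lay 3 to 9 bases before the start in Trem2 and 63 to 69 bases before it in Plaur, and the PU.1 match lay 106 to 112 bases before the start in Spp1. A match in these letters is a description of the sequence and does not show that a factor binds there.

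The calls for genotype on HFD lay close to the threshold. With all 12 libraries 0 of the 9 were called by edgeR, against 0.531% of all genes, although 8 had an unadjusted p under 0.05, while DESeq2's Wald test on 11 libraries called 8, against 12.9% of all genes. Leaving out WT HFD replicate 1, WT HFD replicate 2, HoipA-KO HFD replicate 2 or HoipA-KO HFD replicate 3 left 0 of the 9 called (7 or 8 at an unadjusted p under 0.05), in fits that called 0.207% to 0.584% of all genes higher. Leaving out any 1 of the HoipA-KO CD libraries left 1, against 1.44% to 3.05% of all genes, and leaving out WT CD replicate 1, WT CD replicate 2 or WT HFD replicate 3 gave 7, against 6.25% to 8.67%. Over the 11 fits the log2 fold change of Trem2 ran from 1.30 to 2.34 and Cd63 from 1.12 to 1.60. The upper ends for Trem2 and for Gpnmb, at 2.82 (adjusted p = 0.0242), came without WT HFD replicate 3. On CD all 9 genes were called in each of the 11 fits, and beside Spp1 the largest move was that of Plaur, to 4.37 without WT CD replicate 1.

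Diet in WT called Trem2, Tyrobp, Gpnmb, Cd9, Plaur and Lgals3, and with all 12 libraries also Spp1, for 7 of the 9 against 9.05% of all genes. Trem2, Tyrobp and Gpnmb kept their call whichever library was left out. Without WT HFD replicate 3 the values of Trem2, Tyrobp, Gpnmb and Lgals3 were 3.57, 2.64, 4.43 and 2.24, and without WT CD replicate 1 that of Plaur was 2.47, each still called. Without WT CD replicate 2 the count was 4 (Trem2, Tyrobp, Gpnmb and Spp1), against 3.93% of all genes. In a fit of the WT libraries alone it was 0, against 0% of all genes, with 7 at an unadjusted p under 0.05. Within HoipA-KO the diet differences of the 9 ran from -0.68 (Plaur) to 0.70 (Spp1), 8 of them below 0, and no adjusted p was under 1. At an unadjusted p under 0.05 none of the 9 passed, beside 415 of 18427 genes, and DESeq2 called none of the 9 and 7 genes in all, 0.0385% of those tested. Standard errors of these differences ran from 0.240 to 0.867, so that equal levels on the diets were not shown.

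The interaction of genotype and diet asks whether the diet difference was the same in HoipA-KO and WT. It was lower in HoipA-KO for 6 of the 9, Trem2, Tyrobp, Gpnmb, Cd9, Plaur and Lgals3, against 3.58% of all genes called lower. The interaction was -6.01 (standard error 1.05, adjusted p = 0.0256) for Gpnmb, -4.50 (standard error 0.720, adjusted p = 0.0256) for Trem2 and -3.27 (standard error 0.660, adjusted p = 0.0320) for Lgals3 on the log2 scale. Cd63 at -0.85 (adjusted p = 0.228), Fabp5 at -1.35 (adjusted p = 0.0748) and Spp1 at -2.38 (adjusted p = 0.323) were not called. All 12 libraries gave the call for 6 as well, against 2.7% of all genes. Leaving out WT CD replicate 2, WT HFD replicate 2, any 1 of the HoipA-KO CD libraries, HoipA-KO HFD replicate 1 or HoipA-KO HFD replicate 3 left 0 of the 9 called (7 or 8 at an unadjusted p under 0.05). These 7 fits called 1 to 4 genes lower in all, 0.00524% to 0.0219% of those tested, and the value of Trem2 in them ran from -4.60 to -4.21. Leaving out WT HFD replicate 3 left 3, against 1.2% of all genes, with Gpnmb at -4.99 and Trem2 at -3.76. The value of Spp1 was -5.02 without WT CD replicate 2.

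HoipA-KO mice on CD were also set beside WT mice on HFD, which differ in genotype and in diet. The 9 genes lay higher in every HoipA-KO CD library than in every WT HFD library, as did 23.6% of all genes. Of the 9, 7 were called, against 6.78% of all genes, and Gpnmb differed by 2.48 (standard error 0.657, adjusted p = 0.0344), Lgals3 by 2.03 (standard error 0.435, adjusted p = 0.0181) and Cd63 by 1.62 (standard error 0.262, adjusted p = 0.0106). Fabp5 at 0.80 (adjusted p = 0.0511) and Spp1 at 2.08 (adjusted p = 0.137) were not called. With all 12 libraries 4 were called, against 1.71% of all genes. The count was 1 without WT HFD replicate 2, 2 without HoipA-KO CD replicate 2 and 3 without WT HFD replicate 1, HoipA-KO CD replicate 1 or HoipA-KO CD replicate 3, in fits that called 0.529% to 1.78% of all genes higher.

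General macrophage genes moved with the 9. The 10 genes of this list, among them Lyz2 (lysozyme) and C1qb (a complement subunit), summed to 490.1 to 769.6 CPM in WT CD, 1995 to 5713 in WT HFD, 8943 to 12134 in HoipA-KO CD, followed by 7152 to 10866 in HoipA-KO HFD, and none of the 10 was at 0. On CD 9 of the 10 were called higher in HoipA-KO (median log2 fold change 3.65), against 18.9% of all genes. Lyz2 was at 4.53 (adjusted p = 0.000545) and C1qb at 3.48 (adjusted p = 0.000581). The part of the macrophage content in the changes of the 9 was not tested. To describe each gene beside it, the mean log2(CPM + 1) of the 10 macrophage genes was subtracted from log2(CPM + 1) of each gene in the same library. This mean averaged 5.15 in WT CD and 8.75 in HoipA-KO CD, so a gene that did not change falls on this scale. Shares of all genes on it are therefore no measure for genes of macrophages, and a rise particular to the 9 was not tested. Cd68 and Spi1, outside the 9 and the 10, also rose, from 19.3 and 8.31 CPM on average in WT CD to 1272 and 240 in HoipA-KO CD.

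On this relative scale Trem2, Tyrobp, Gpnmb and Lgals3 were higher in every HoipA-KO CD library than in every WT CD library, 4 of the 9 against 0.678% of all genes. Gpnmb went from -0.61 ± 0.513 (mean ± SD, n = 3) to 3.98 ± 0.198, Trem2 from -2.30 ± 0.359 to 0.43 ± 0.272, Lgals3 from 1.68 ± 0.636 to 3.42 ± 0.177 and Tyrobp from -0.89 ± 0.172 to 0.69 ± 0.260. Cd63 and Fabp5 went the other way, from 2.24 ± 0.476 to 1.18 ± 0.159 and from 2.08 ± 0.770 to 0.74 ± 0.0675, without overlap, as did 97.9% of all genes. Cd9 was at 0.11 ± 0.209 and 0.18 ± 0.144, and its ranges overlapped. Diet in WT also gave 4 of the 9 above without overlap, the same 4 genes, against 0.467% of all genes, and 2 below, Cd9 and Cd63, against 95.4%. Genotype on HFD gave 4 above, Trem2, Tyrobp, Lgals3 and Spp1, against 0.407%, and 1 below, Fabp5, against 66.1%. Gpnmb overlapped there, with HoipA-KO HFD down to 2.89 and WT HFD up to 2.92. HoipA-KO CD beside WT HFD gave 8 above, against 1.23%, and none below. Within HoipA-KO, 5 of the 9 were lower on HFD in every library on this scale, against 4.1% of all genes, and none was higher.

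**Figure D3:**
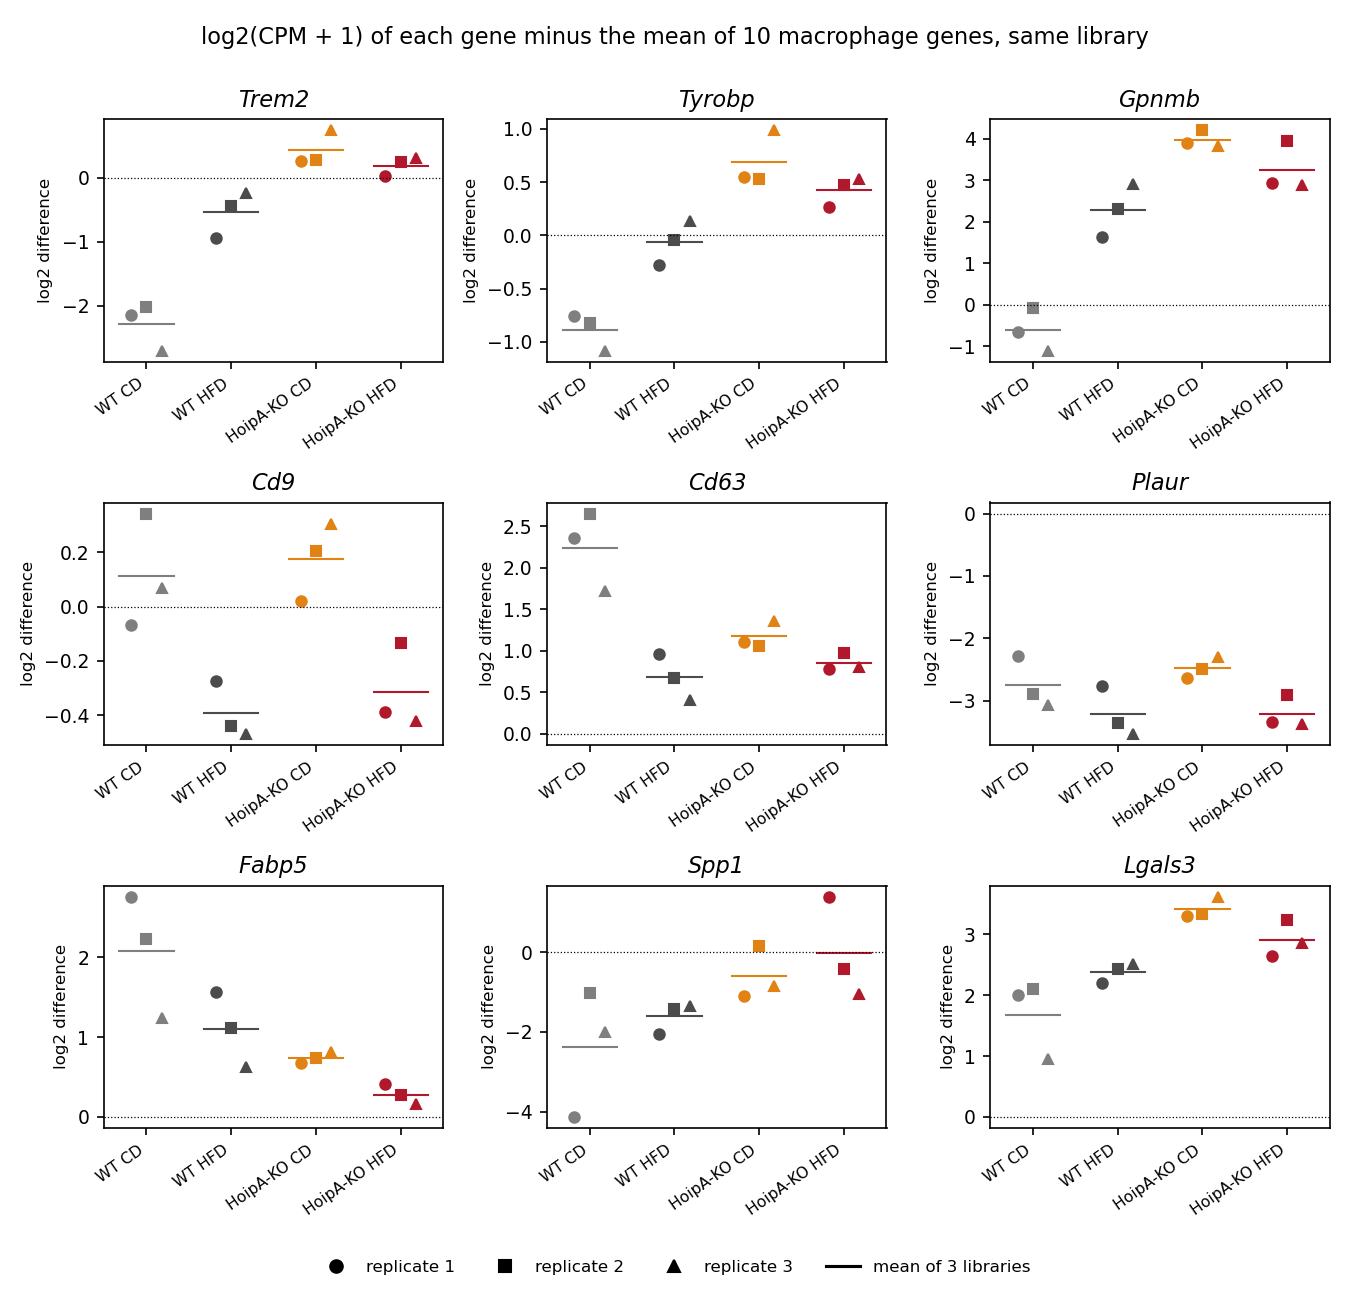
For each gene, log2(CPM + 1) minus the mean of the 10 macrophage genes in the same library, with 1 symbol per replicate and a line at the mean of 3 libraries. Trem2, Tyrobp, Gpnmb and Lgals3 lie higher in all HoipA-KO CD than in all WT CD libraries, and Cd63 and Fabp5 lie lower.

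**Figure D4:**
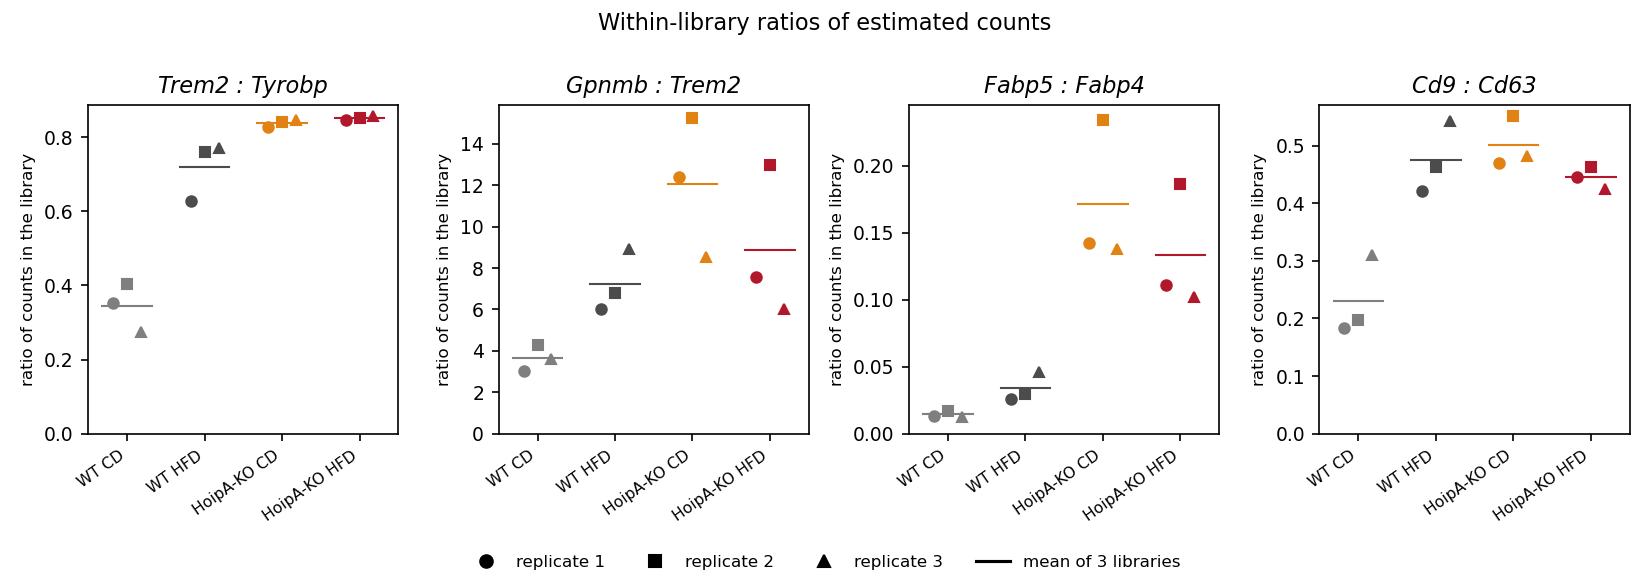
Ratio of the estimated counts of 2 genes in the same library, on axes that start at 0, with a line at the mean of 3 libraries. The Trem2 to Tyrobp ratio is lowest in WT CD and lies within 0.827 to 0.858 in the 6 HoipA-KO libraries, and the Fabp5 to Fabp4 ratio is higher in every HoipA-KO library than in every WT library.

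Genes that act with Trem2 were taken from a list of 12, which holds its ligands, signalling partners, the proteases that shed it and the transcription factor Spi1 (PU.1). On CD 9 of the 12 were called higher in HoipA-KO and none lower, where 18.9% of all genes were called higher and 18.8% lower. The median log2 fold change of the 12 was 2.20. Apoe, a lipoprotein ligand, was not called at 0.37 (adjusted p = 0.433), and Grb2, an adaptor of receptor signalling, rose by 1.39 (adjusted p = 0.00216). Of 9 other receptors of the Trem family or that use Tyrobp, 6 were called higher and 1 lower, with Clec5a at 2.07 (adjusted p = 0.00109), Sirpb1a at 5.55 (adjusted p = 0.000452) and, in the lower direction, Siglech (a plasmacytoid dendritic cell receptor) at -1.29 (adjusted p = 0.0157). Their levels were low, with a mean of 6.95 CPM for Clec5a in HoipA-KO CD. On HFD 3 of the 12 and none of the 9 receptors were called higher, against 4.2% of all genes.

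Among 16 further genes known from lipid-associated macrophages, 11 were called higher in HoipA-KO on CD and 1 lower, against 18.9% and 18.8% of all genes. Lpl (lipoprotein lipase), which adipocytes also make, was not called at -0.52 (adjusted p = 0.283), and the gene called lower was Fabp4, an adipocyte gene as well, at -1.82 (adjusted p = 0.00416). All 4 genes of the Mitf and Tfe family, regulators of lysosomal genes, were called higher on CD, with Tfe3 at 1.23 (adjusted p = 0.00117) and Mitf at 2.38 (adjusted p = 0.00581). On HFD 2 of the 16 and 2 of the 4 were called higher, against 4.2% of all genes. Of the 16, 1 was called lower on HFD, as were 1405 of 18427 genes in all.

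Relatives of the 9 genes did not all move with them. On CD 18.9% of all genes were called higher and 18.8% lower, so small counts such as 2 of 7 say little about a list. Of 7 other tetraspanins, 2 were called higher on CD and none lower, and the most abundant, Cd151 (-0.52, adjusted p = 0.0939) and Cd81 (-0.23, adjusted p = 0.516), were not called. Of 6 other galectin genes, 3 were called higher and 1 lower, with Lgals1 not called at 0.39 (adjusted p = 0.416), Lgals3bp higher at 0.61 (adjusted p = 0.0421) and Lgals12, an adipocyte galectin, lower at -2.87 (adjusted p = 0.00105). Of 7 other fatty acid binding proteins 5 passed the filter on low counts, of which 2 were called lower and 1 higher. Fabp3 was not called at 0.66 (adjusted p = 0.549), and Fabp7 was the one called higher, at 5.27 (adjusted p = 0.000543), with 0.312 CPM on average in WT CD and 11.8 in HoipA-KO CD.

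The partners of the secreted and surface proteins were followed in 2 lists, set beside the 18.9% of all genes called higher on CD. Of 9 osteopontin receptors, 6 were called higher in HoipA-KO on CD and none lower, with Itgb1 not called at 0.59 (adjusted p = 0.0647) and Cd44 higher at 4.72 (adjusted p = 0.000598). Of 8 genes of the urokinase system, 3 were called higher and none lower, among them Lrp1, the endocytic receptor that clears urokinase complexes, at 2.10 (adjusted p = 0.00312) and Plau, urokinase itself, at 1.54 (adjusted p = 0.00587). The Plaur to Plau count ratio was 0.0972, 0.0347 and 0.0974 in WT CD, 0.135, 0.101 and 0.110 in WT HFD, 0.262, 0.264 and 0.340 in HoipA-KO CD, followed by 0.125, 0.206 and 0.0977 in HoipA-KO HFD. HoipA-KO CD lay clear above the other groups. WT CD lay below them all, though by little beside HoipA-KO HFD replicate 3, and WT HFD overlapped with HoipA-KO HFD.

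Lists of marker genes of other cells are set beside the 18.9% of all genes called higher and 18.8% called lower on CD. Of 10 adipocyte genes 9 were called lower in HoipA-KO (median -2.08), and of 7 mast cell genes 6 were called higher (median 6.96, summed level 20.0 to 29.8 CPM in WT CD and 558 to 674 in HoipA-KO CD). Of the smaller counts, 1 of 6 neutrophil genes, 2 of 6 dendritic cell genes and 3 of 7 progenitor genes were called higher. Called lower were 2 of 6 endothelial genes and 1 of 8 epididymis genes. All 7 testis genes were called lower in HoipA-KO on CD (median -8.08) and on HFD in WT (median -6.94). They summed to 17.9 and 425 CPM in WT CD replicates 1 and 2, both in the fit, and to at most 3.48 CPM outside WT CD. Of 6 genes of resident macrophages 2 were called higher, Mrc1 (2.76, adjusted p = 0.00192) and Folr2 (2.46, adjusted p = 0.00133), and Cd163, a scavenger receptor, was called lower at -2.37 (adjusted p = 0.000452). Mast cells also carry Cd9 and Cd63, and the part of these cells in the changes of the 9 genes was not tested.

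The genes whose levels ran closest to 3 of the 9 over the 11 libraries were taken from 10134 protein-coding genes with a mean of at least 10 CPM, the 9 themselves left out. Closest to Trem2 outside the 9 were Cotl1, Cd68 and Spi1 (Pearson r of log2(CPM + 1) 0.999, 0.999 and 0.999), closest to Gpnmb were Rftn1, Pirb and Cd300c2 (0.999, 0.999 and 0.999), and closest to Cd9 were Bin2, Aph1c and Renbp (0.998, 0.997 and 0.996). Among the 9 themselves r ran from 0.762 between Spp1 and Fabp5 to 0.999 between Trem2 and Tyrobp. These values are descriptions over 11 libraries that share the same 4 groups, the same depth scaling and the same tissue makeup.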

How the data were processed

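GWAT RNA from 12 pools was sequenced, and the reads were trimmed with Trim Galore 0.6.7, aligned with STAR 2.7.10a and quantified with Salmon 1.5.2, per the submitters' processing notes, which name GRCm38 (the study's methods name GRCh38). The authors deposited estimated counts per gene, merged over samples and not normalized, in a table of 55281 genes and one of 21646 protein-coding genes. They also deposited DESeq2 1.38.1 tables of fold changes and p-values, which were not used here.

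Expected counts were rounded, filtered with filterByExpr, scaled by TMM and fitted with edgeR 4.0.16 (R 4.3.3) as 4 groups of 11 libraries, without WT CD replicate 3, with its quasi-likelihood test and Benjamini-Hochberg adjustment over all genes tested. A gene was called at an adjusted p under 0.05. CPM used TMM over 12 libraries. Depth was 30513446 to 60540225 estimated counts, and intervals from counting were not used. The alternatives were other scalings, filters, libraries and blocks, and DESeq2 1.42.0. The labels number the replicates without saying what a number shares. Between HoipA-KO CD and HoipA-KO HFD the deviations from the group means of same-numbered libraries correlated in 3 of 3 pairs (r from 0.150 to 0.508). A differently numbered pair, HoipA-KO CD replicate 3 with HoipA-KO HFD replicate 1, also reached 0.261, so these values do not show that the libraries were paired. With the replicate block this comparison also called 0 genes (367 at an unadjusted p under 0.05). Both tools were tested on simulated data. edgeR kept its false calls within the limit set for it, whereas DESeq2 made more false calls than its threshold implies, and it was kept as an alternative with that limit lifted after it had failed.

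The 9 genes and all lists were chosen with earlier results of these data known. From each list, the 2 genes with the highest mean CPM and any gene called against its direction were named, and for Trem2, Gpnmb and Cd9 the 3 genes outside the 9 with the highest r. Positions and lengths are from GENCODE M21 (GRCm38), in which 51948 gene IDs matched.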

Additional observations from a re-analysis of the deposited data

Results flagged for a closer look

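For 6 of the 9 genes the effect of diet differed between the genotypes by the interaction term of the edgeR fit, in each case lower in HoipA-KO than in WT. The interaction was -4.50 on the log2 scale for Trem2, -3.53 for Tyrobp, -6.01 for Gpnmb, -2.37 for Cd9, -2.52 for Plaur and -3.27 for Lgals3, with adjusted p from 0.0256 to 0.0332. In WT the diet differences of these 6 ran from 1.83 to 5.43, and in HoipA-KO from -0.68 to -0.20. The call was lost for all 6 when any of 7 single libraries was left out, in fits that called 1 to 4 genes lower among all genes tested.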

How the results depend on the processing

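On CD the count of 9 genes called higher held under every alternative run, and within HoipA-KO the count of 0 did. For genotype on HFD (6 called) the count was 0 with all 12 libraries and 3 with only the groups compared, and from 0 to 7 over the fits that left out 1 library. For diet in WT (6 called) it was 0 with only the groups compared, and from 4 to 7 with 1 library left out. For HoipA-KO CD beside WT HFD (7 called) it was 4 with all 12 libraries and from 1 to 8 with 1 library left out. For the interaction (6 called) it ran from 0 to 7 with 1 library left out. The cause was not tested, beyond fewer libraries entering some of these fits. Deviations of same-numbered libraries correlated above 0.1 in every pair only between HoipA-KO CD and HoipA-KO HFD, which does not show pairing. In the other pairs of groups 1 or more correlations were under 0.1. With a replicate block the counts were 9 on CD, 5 on HFD, 5 for diet in WT, 0 for diet in HoipA-KO, 7 for HoipA-KO CD beside WT HFD and 4 for the interaction. Without HoipA-KO HFD replicate 1 the diet difference in HoipA-KO turned direction for Trem2 (from -0.37 to 0.00428 with 1 library left out) and Spp1 (from -0.0384 to 1.30), and no other log2 fold change of the 9 turned. DESeq2 on all 12 libraries was added after the data were seen and called 8 on HFD. The biological coefficient of variation was 0.394 over 11 libraries and 0.514 over 12, and 2 or 3 pools a group limit what could be called.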

Other observations

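Proliferation genes, which were not part of the comparisons above, were called higher in HoipA-KO on CD for 5 of 5 (median log2 fold change 3.51) and on HFD for 1 of 5. In WT all 5 were called higher on HFD (median 2.74), against 9.35% of all genes. For genotype, 18.9% of all genes were called higher on CD and 4.2% on HFD. Their summed level was 18.9 and 19.4 CPM in WT CD replicates 1 and 2, 212 in WT CD replicate 3, which also held testis transcripts, and 158 to 309 in HoipA-KO CD. Among mast cell genes, Tpsb2 and Cma1, both mast cell proteases, averaged 1.86 and 1.54 CPM in WT CD and 186 and 145 CPM in HoipA-KO CD.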
